A study of Mus musculus with 2 samples.

Results

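The cells described here are IL-17 type gamma-delta T cells among the CD45+ cells of B16F10 melanoma tumours. They were 162 of 10491 cells kept, from a mouse single-cell experiment of 1 BD Rhapsody capture that counted the whole transcriptome. B16F10 is a pigmented mouse melanoma line, and wildtype, Tyr knockout or Oca2 knockout cells of it were grown under the skin of female C57/BL6 mice, 3 mice for each of the 3 tumour genotypes. Tyr encodes tyrosinase, the rate-limiting enzyme of melanin synthesis, and Oca2 a melanosomal transport protein. The mice of a genotype shared 1 sample tag, an antibody-bound barcode put on cells before pooling, so the mice within a tag could not be separated. Cells carried tags 8, 9 and 10; which tag stands for which genotype is not given in the sources used here. Tags are therefore named by number, each is 1 pooled sample, and no test was made between them. The series title speaks of PD-1 deficient T cells, while the labels give the host genotype as C57/BL6 and name no PD-1 allele.

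Members were chosen on their own molecule counts. A member carried tag 8, 9 or 10, had 200 or more genes detected and at most 25% mitochondrial molecules, and held at least 2 molecules of Cd163l1, Trdv4 and Il17a together. It also held at least 1 molecule of Cd3e, Cd3d, Cd3g or Trdc, none of Cd8a, Cd8b1 and Foxp3, and fewer than 10 of the macrophage genes C1qa, C1qb and C1qc. Levels of those genes in the members describe the choice and are no result. Since the cells were picked by expression, every contrast below is also a description, without a p-value.

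Gamma-delta T cells carry a T cell receptor made of a gamma and a delta chain in place of the alpha and beta chains of CD4 and CD8 T cells. The IL-17 type is set in the thymus under transcription factors that include Sox13 and c-Maf. It settles in skin and other barrier tissues and releases IL-17A quickly when myeloid cells supply IL-1β and IL-23, without needing antigen. IL-17A draws neutrophils, and in tumours these cells have been linked to myeloid recruitment as well as to tissue repair. Interferon-gamma producing gamma-delta T cells form the other main branch, marked by Cd27.

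Tag 8 held 40 members of 3336 kept cells, a share of 1.20% (exact 95% binomial interval 0.858% to 1.63%). Tag 9 held 51 of 3486, or 1.46% (1.09% to 1.92%), and tag 10 held 71 of 3669, or 1.94% (1.51% to 2.43%). Intervals here and below cover counting error only, not the differences between mice. Among cells with a CD3 or Trdc molecule the shares by tag were 5.40%, 5.37% and 6.76%, and their intervals overlap. Among cells with at least 2 Trdc molecules and a CD3 molecule, members made up 36 of 64, 41 of 76 and 61 of 116, or 56.2%, 53.9% and 52.6%. Of Trdc-bearing T cells, members were 138 of 256 in all. The share of kept cells was the lowest in tag 8 and the highest in tag 10, and the 3 intervals overlap.

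**Figure D1:**
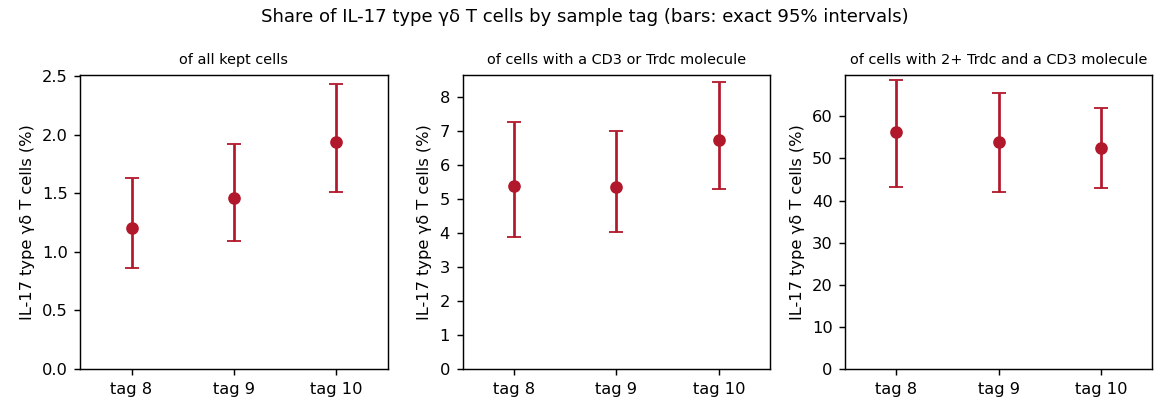
Share of IL-17 type gamma-delta T cells (y axis, percent) in tags 8, 9 and 10, out of all kept cells (left), of cells with a CD3 or Trdc molecule (middle) and of cells with at least 2 Trdc molecules and a CD3 molecule (right). Points are shares and bars exact 95% intervals; on the left the shares are 1.20%, 1.46% and 1.94%, and on the right they lie between 52.6% and 56.2%.

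Depth was alike in the 3 tags: the median member had 2921, 2969 and 2926 molecules, and the members together 123978, 205696 and 224204. A single member of tag 9 stood apart with 44286 molecules, 21.5% of its tag's member total. This cell held 15 Cd163l1, 16 Il17a and 8 Trdc molecules beside 1079 molecules of the melanoma genes Pmel, Mlana, Tyrp1 and Dct. With it, the melanoma genes summed to 5299 CPM, molecules scaled to a common total, in tag 9, and without it to 68.1, near the 64.5 of tag 8 and 49.1 of tag 10. Beside the lists below, counts without this and other cells over 20000 molecules are given where they differed. Markers of other cell types were counted in the members. The monocyte list, which holds Ccr2, reached 1 molecule in 134 of 162 members, at 865 to 1323 CPM by tag, against 1153 to 3421 in the 3 other T cell classes used below. The dendritic list, which holds H2-Aa, H2-Ab1 and Cd74, did so in 116, at 1920 to 2518 CPM against 372 to 4259. The invariant or MAIT list, through Zbtb16 in the main, did so in 71, at 189.6 to 250.04 CPM against 3.22 to 32.9, with Trav1 at 0. The regulatory T list, which holds Il2ra and Ikzf2, did so in 92, at 360 to 557 CPM against 212 to 348, with Foxp3 at 0 by the choice of all 4 classes. Neutrophil genes reached 1 molecule in 12 members, B cell genes in 21, and NK cell genes in 6, with a highest tag sum of 161 CPM for the NK list. ILC3 genes did so in 39 members (89.2 to 129 CPM against 10.1 to 168), ILC2 genes in 36, melanoma genes in 24 and fibroblast genes in 13. Macrophage genes reached 1 molecule in 51 of 162 members and 2 in 13, between 134 and 355 CPM by tag against 84.2 to 616 CPM in those classes. Their part in the contrasts was not tested.

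The 3 genes of the marker sum were unevenly spread over the members. Cd163l1, a scavenger receptor family gene known from IL-17 type gamma-delta T cells (chromosome 7, 140218267 to 140231145, plus strand, GRCm38), was found in 153 members with 910 molecules. Trdv4, the variable delta segment of many skin and tumour IL-17 cells (chromosome 14, 54074905 to 54075515, plus strand), was found in 91 with 197 molecules. Il17a itself (chromosome 1, 20730905 to 20734496, plus strand) was found in 100 with 475 molecules, up to 27 in a cell. All 3 genes were present in 48 members, Cd163l1 with Il17a in 43, Cd163l1 with Trdv4 in 40 and Cd163l1 alone in 22. Il17a alone carried 6 members and Trdv4 with Il17a 3. Trdc, the delta constant gene (chromosome 14, 54142851 to 54148868, plus strand), was present in 152 of 162 with a median of 7 molecules.

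Members held 86.1% of all Cd163l1 molecules of the kept cells, 83.9% of Il17a, 73.0% of Trdv4 and 56.8% of Trdc. These are genes of the rule, so such shares, and the Il17a count of the members below, describe the choice. Outside the T cells, Il17a was found in 0 of 1299 macrophages (median 10012 molecules), 0 of 286 B cells (median 2374) and 1 of 448 neutrophils (median 2232.5), against 100 of 162 members (median 2958). At the edge of the rule, 14 cells had a marker sum of 2, and 12 of these had Trdc, 7 had Blk and 2 had Trac. Just outside, 23 cells had a sum of 1, of which 10 had Trdc, 4 Blk, 9 Trac and 5 Ifng. Most members were far from the edge: 141 had a sum of 4 or more and 73 a sum of 10 or more.

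The gamma-delta identity was also seen in receptor genes that the rule did not use. Tcrg-C1, the gamma constant gene joined to the segments of IL-17 type cells (chromosome 13, 19214103 to 19217024, plus strand), was found in 140 members with 750 molecules. Of the variable gamma segments, Tcrg-V6 was found in 22 members with 24 molecules, Trgv2 in 16 with 23, Tcrg-V1 in 7, Tcrg-V4 in 2 and Tcrg-V5 in 2; Tcrg-V3 and Tcrg-V7 had no molecule. Members held 72.7% of all Tcrg-V6 molecules, 24 of 33, and Tcrg-V6 pairs with the Trdv4 segment in the fetal IL-17 lineage. Most cells showed no variable gamma segment at this depth, so the segment of a single cell could mostly not be read. Trdc without Trac was seen in 114 members, both in 38, Trac alone in 6 and neither in 4. Trac is the alpha constant gene, and the Trdc gene lies inside the T cell receptor alpha locus. The authors' pipeline counted the 2 genes separately, and whether the counting used strand is not given in the sources used here.

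Members were set beside 3 other T cell classes of the same tags. Conventional CD4 T cells were 310 cells (94, 104 and 112 by tag), CD8 T cells 718 (150, 273 and 295), and other Trdc T cells 84 (21, 26 and 37). The last had at least 2 Trdc molecules, a CD3 molecule and none of the 3 marker genes, and 54 of the 84 had a molecule of a list of 5 NK cell markers. Molecules were summed per class and tag and given as CPM, and log2 ratios were taken within a tag. A gene is called higher or lower where it was at least 2-fold so in all 3 tags. Genes needed 30 or more molecules in the 2 classes together. A 0 was set to a floor of 3 counts in that tag, which makes the ratio a bound. Where a log2 value is given without more words, it is the median of the 3 tags.

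Against CD4 T cells, 136 of 6542 genes (2.08%) were higher in the members and 132 (2.02%) lower. Against CD8 T cells, 410 of 9280 (4.42%) were higher and 323 (3.48%) lower. Against other Trdc T cells, 188 of 4639 (4.05%) were higher and 105 (2.26%) lower. The member median depth lay near that of the CD4 T cells (2972.5 molecules) and below that of the CD8 T cells (5100.5) and other Trdc T cells (3583). These percentages are the background for the lists of known genes, and the genes of the rule are left out of every list count. With cells over 20000 molecules left out, the counts were 155 and 139, 369 and 306, and 196 and 105.

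**Figure D2:**
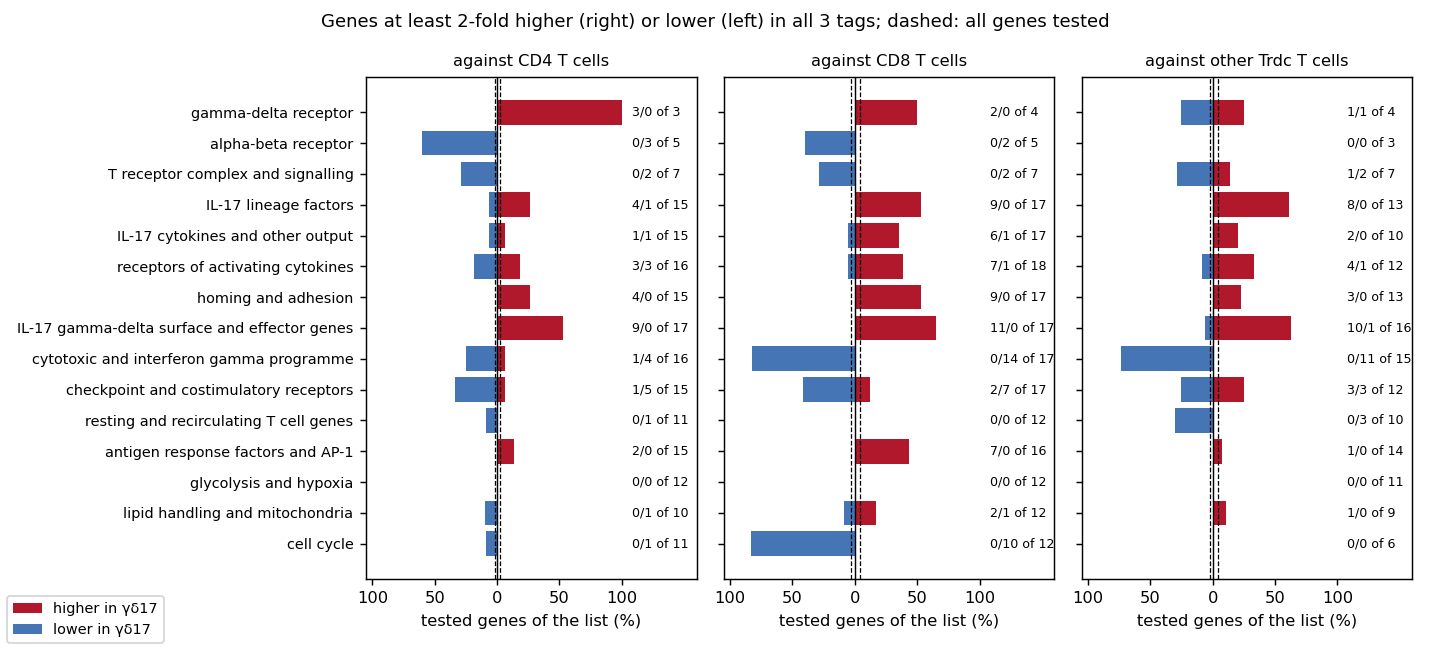
Share of the tested genes of each of 15 lists (x axis, percent) that were higher (right, red) or lower (left, blue) by at least 2-fold in all 3 tags in the members, against CD4, CD8 and other Trdc T cells; the printed counts are higher, lower and tested genes. Dashed lines mark the share over all genes, 2.08% to 4.42% for higher and 2.02% to 3.48% for lower, and the IL-17 gamma-delta surface and effector list reached 9 of 17, 11 of 17 and 10 of 16.

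The receptor genes are given ahead of the other lists. Of the gamma-delta receptor list, 3 of 3 tested genes were higher than in CD4 T cells (Tcrg-C1, Tcrg-C2 and Tcrg-C4), 2 of 4 were higher than in CD8 T cells, and against other Trdc T cells 1 of 4 was higher and 1 lower. Tcrg-C1 measured 1597, 1113 and 1441 CPM in the members of tags 8, 9 and 10. It measured 2.39, 0 and 7.11 in CD4 T cells, 9.12, 1.61 and 6.27 in CD8 T cells, and 396, 157 and 217 in other Trdc T cells. The members lay above every other class in every tag, by 2.73 on the log2 scale over other Trdc T cells (range over tags 2.01 to 2.82). Tcrg-C4, another gamma constant gene, ran the other way between the Trdc classes: 48.4, 63.2 and 62.4 CPM in members against 360.1, 149.5 and 197 in other Trdc T cells, a log2 difference of -1.66. That call ended when the mitochondrial limit was set to 10%, at a median of -2.36.

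Of 5 tested alpha-beta list genes, 3 were lower than in CD4 T cells: Trac, Cd5 and Cd6. Trac measured 282, 185 and 227 CPM in members against 1110.1, 1321 and 1484 in CD4 T cells and 1055, 996 and 1059.9 in CD8 T cells. Members lay below both in every tag, while other Trdc T cells, at 84.0, 55.1 and 171, were not called apart from them. Trbc2, a beta constant gene, was not called and was found in 121 of 162 members. Its log2 differences from the 3 classes were -1.06, -1.45 and -0.50; without cells over 20000 molecules Trbc2 and Cd5 were called lower than in CD8 T cells, which took that count from 2 to 4 of 5. Cd5, a damper of receptor signalling, measured 56.5, 14.6 and 13.4 CPM in members and 177, 374 and 292 in CD4 T cells. Cd6, a related surface receptor, differed from CD4 T cells by -5.25. Both calls ended when cells were thinned to 1000 molecules each, where the median was -4.40 for Cd5 and -1.76 for Cd6.

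Lat was not called against CD4 T cells, but other signalling genes were. The CD3 chains are genes of the rule, and every comparator cell needed a CD3 molecule, so their levels are no result. Of the 7 tested genes of the receptor complex and signalling list, Lck and Cd2 were lower than in each of the 3 classes. Lck, the Src-family kinase that starts receptor signalling, measured 8.07, 72.9 and 66.9 CPM in members. In CD4 T cells it measured 420.2, 519.9 and 453, in CD8 T cells 529, 489 and 502, and in other Trdc T cells 540.1, 299 and 348. No tag of the members reached any tag of another class; a Lck molecule was found in 13 of 162 members and in 213 of 310 CD4 T cells. Cd2, an adhesion receptor, measured 40.3, 53.5 and 93.7 CPM in members and at least 236 in every tag of the others. Lat, an adaptor of receptor signalling, differed from CD4 T cells by -0.07, with a range of -0.07 to 0.27 over the tags. Lat was higher by 1.78 than in other Trdc T cells, a call that ended after thinning (2.24, with a tag under 2-fold).

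Fyb, an adaptor linking the receptor to integrins, was among the genes furthest below CD4 T cells, with 48.4, 77.8 and 161 CPM in members against 836, 1073 and 956. Its log2 difference was -2.51 from CD8 T cells and -2.80 from other Trdc T cells. Blk ran the opposite way to Lck. Blk, a Src-family kinase known from B cells and from IL-17 type gamma-delta T cells (chromosome 14, 63372836 to 63417037, minus strand), measured 903, 462 and 642 CPM in members. It had 0 molecules in CD4 T cells and 2 in CD8 T cells, and measured 24.0, 86.6 and 0 CPM in other Trdc T cells, where 3 cells held its 13 molecules. The members were at least 90.3-fold higher than CD4 T cells, as the median of the tags with 3 counts per tag as floor. A Blk molecule was found in 124 of 162 members, and B cells of the same samples measured 209, 256 and 150.01 CPM.

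Transcription factors and a kinase make up the IL-17 lineage list. Against CD4 T cells, 4 of 15 tested were higher, among them Sox13, Blk and Zbtb16, and 1 was lower (Gata3). Against CD8 T cells 9 of 17 were higher and none lower, and against other Trdc T cells 8 of 13 were higher and none lower. Without cells over 20000 molecules, 5 of 14 were higher than in CD4 T cells, Irf4 added, and 8 of 17 than in CD8 T cells. The list's median log2 ratio was 0.47, 1.38 and 1.72 in the 3 contrasts, beside -0.09, 0.00 and 0.02 over all genes. Over all genes tested, 2.08%, 4.42% and 4.05% were higher.

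Sox13, a high-mobility-group factor of this lineage (chromosome 1, 133382303 to 133424377, minus strand), measured 177, 102 and 89.2 CPM in members and had no molecule in any of the 3 other classes. The ratio was at least 12.5-fold against CD4 T cells, 66.4-fold against CD8 T cells and 4.53-fold against other Trdc T cells, bounds that follow the depth of each class. Zbtb16, which encodes PLZF, a factor of innate-like T cells (chromosome 9, 48654297 to 48836222, minus strand), measured 250.04, 189.6 and 183 CPM in members. It measured at most 2.81 CPM in any tag of CD4 and CD8 T cells, and 12.003, 23.6 and 19.7 in other Trdc T cells. Against the 38 other Trdc T cells without the NK genes Ncr1, Klrb1c and Klre1, Sox13 and Blk were no longer called (0.65 and 3.40). Sox13 had no molecule in these 38 cells either, so 0.65 is a bound set by the floor of 3 counts over a smaller total. The cause of the change in Blk was not tested.

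Maf and Rora were not called against CD4 T cells. Maf, the gene of c-Maf (chromosome 8, 115682942 to 115707794, minus strand), measured 678, 535 and 624 CPM in members and 489, 778 and 436 in CD4 T cells, so the groups overlapped. CD8 T cells had 19.3, 19.3 and 30.03 CPM, and other Trdc T cells 48.0, 70.8 and 65.7. C1q macrophages also had 719, 434 and 528 CPM of Maf. Rora, the gene of the nuclear receptor RORα, measured 1839, 1245 and 1789 CPM in members, 487, 1096 and 946 in CD4 T cells, 342, 215 and 318 in CD8 T cells and 288, 149.5 and 440.2 in other Trdc T cells. Rora was higher than in CD8 and other Trdc T cells, by 2.49 and 2.67, and differed from CD4 T cells by 0.92 (range 0.18 to 1.92). Gata3, a factor of type 2 helper cells, was lower than in CD4 T cells (log2 difference -1.48), with 72.6, 77.8 and 107 CPM against 179, 261 and 299.

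**Figure D3:**
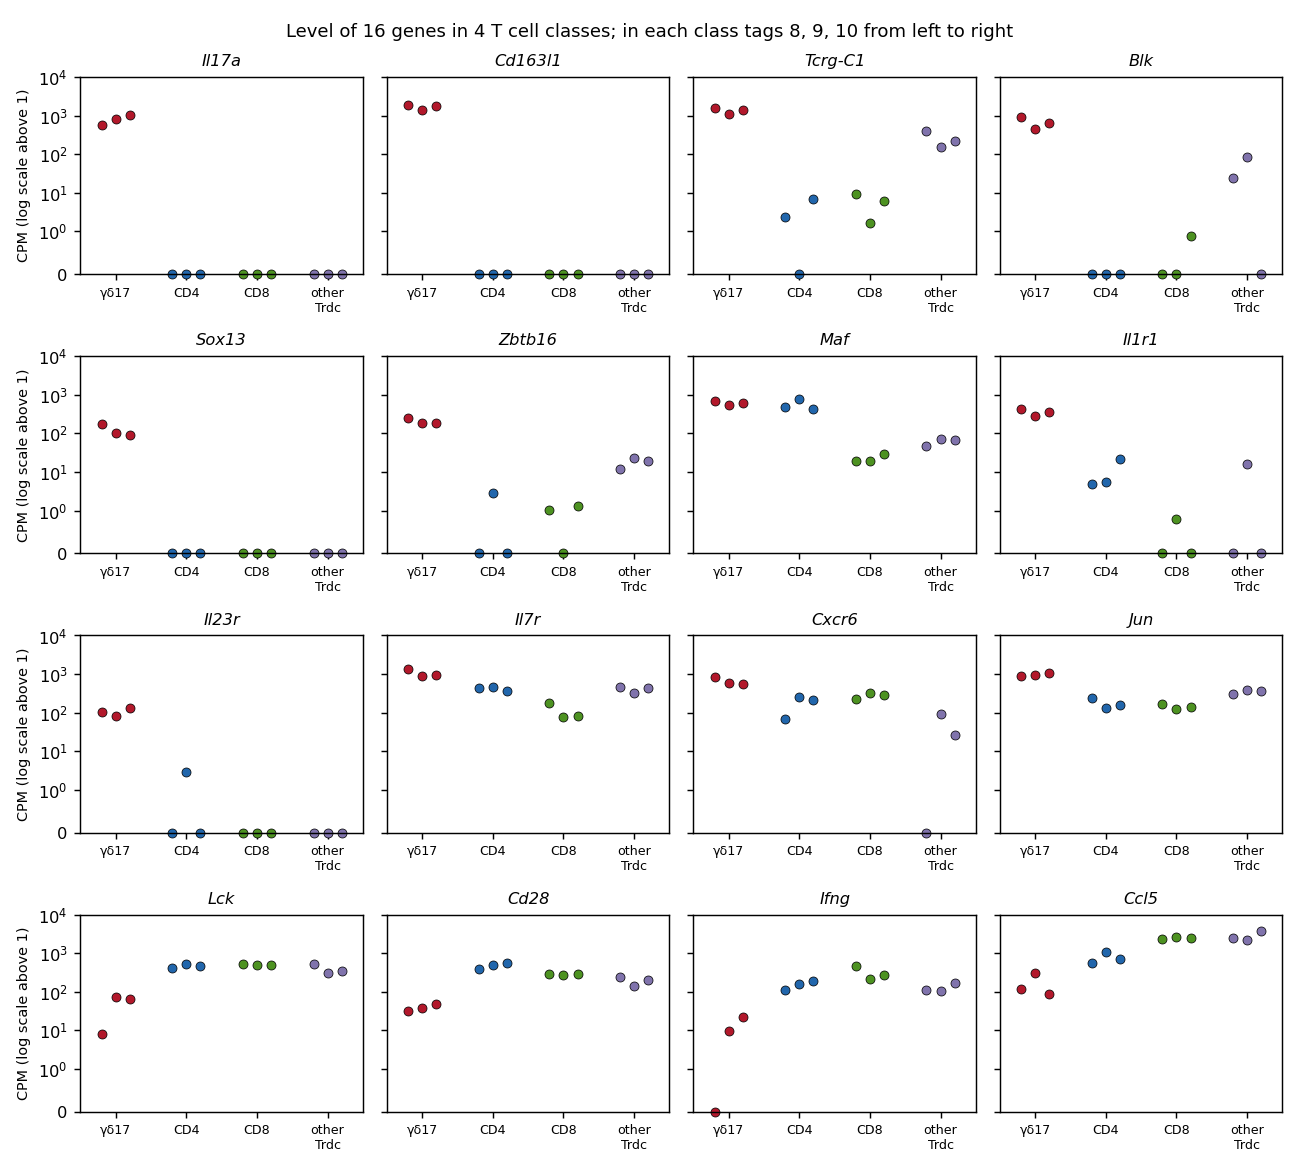
Level of 16 genes (y axis, CPM, linear up to 1 and logarithmic above) in the members (γδ17), CD4, CD8 and other Trdc T cells, with a point for each of tags 8, 9 and 10. Il17a and Cd163l1 are genes of the rule; Sox13 lies at 89.2 to 177 CPM in the members and at 0 in the other classes, and Lck at 8.07 to 72.9 CPM in the members and at 299 or more elsewhere.

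Receptors for the cytokines that drive IL-17 production stood out among the receptor list, of which 3 of 16 tested genes were higher than in CD4 T cells, 7 of 18 than in CD8 T cells and 4 of 12 than in other Trdc T cells; 3, 1 and 1 were lower. Without cells over 20000 molecules, 4 of 16 and 7 of 17 were higher than in CD4 and CD8 T cells. Il1r1, the IL-1 receptor (chromosome 1, 40225080 to 40317257, plus strand), measured 419, 287 and 370.2 CPM in members. The highest tag of any other class was at 21.3 CPM. Il23r, the IL-23 receptor (chromosome 6, 67422932 to 67491855, minus strand), measured 105, 82.6 and 129 CPM in members. Its molecules numbered 1 in CD4 T cells, 0 in CD8 T cells and 0 in other Trdc T cells. Its partner chain Il12rb1 measured 32.3, 43.8 and 53.5 CPM and was higher by 2.76 than in CD4 T cells and by 2.37 than in CD8 T cells. Against the 38 other Trdc T cells without those NK genes, Il23r was no longer called (0.35). As Il23r had no molecule there, 0.35 is a bound set by the floor of 3 counts over a smaller total.

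Il7r, the receptor for the survival cytokine IL-7, measured 1323, 914 and 932 CPM in members against 444, 475 and 365 in CD4 T cells, 178, 77.3 and 81.1 in CD8 T cells and 468, 331 and 440.2 in other Trdc T cells. Every member tag lay above every tag of the others, yet against CD4 T cells the lowest ratio was 0.94, so the gene was not called there; without cells over 20000 molecules it was. Against other Trdc T cells (1.47) 4 alternative settings ended the call, the 38 cells without those NK genes giving 0.19. Il18r1, the IL-18 receptor, measured 524, 301 and 499.5 CPM and was higher than in CD8 T cells by 1.91. Il2ra, a chain of the IL-2 receptor, was higher than in CD8 T cells by 1.52 and than in other Trdc T cells by 2.35. Il6st, Il21r and Il1rl1, the last the receptor of IL-33, were lower than in CD4 T cells.

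Il17f, Il22 and Csf2 were sparse, while other genes of the cytokine list were not. Ltb had 179 molecules in 84 members and Tnf 107 in 59. Cxcl2 had 425 molecules in 110 members, 0.0709% of its molecules in all kept cells. Of the cytokine list, 1 of 15 tested genes was higher than in CD4 T cells, 6 of 17 than in CD8 T cells and 2 of 10 than in other Trdc T cells; 1, 1 and 0 were lower. Il17f, the nearest relative of Il17a (chromosome 1, 20777146 to 20790617, minus strand), had 35 molecules in 17 members: 24.2, 38.9 and 107 CPM by tag. CD4 T cells had 3 molecules, and the call there ended when CPM was averaged over cells (1.96) or CD4 T cells of a single cluster were used (1.71). Il22, a related cytokine acting on epithelium, had 10 molecules in 7 members. Csf2 (GM-CSF), a myeloid growth factor, had 22 molecules in 14 members and 10 in the 718 CD8 T cells, a log2 difference of 3.68. Without cells over 20000 molecules, 4 of 16 were higher than in CD8 T cells, Csf2 and Tnfsf14 no longer among them.

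Areg encodes amphiregulin, an epidermal growth factor family ligand of tissue repair. It measured 137, 160.4 and 138 CPM in members, 35.8, 39.3 and 71.1 in CD4 T cells, 29.4, 14.1 and 16.6 in CD8 T cells and 0, 7.87 and 0 in other Trdc T cells. Every member tag was above every tag of the others, but the lowest ratio to CD4 T cells was 0.96, short of 2-fold. Ltb, a lymphotoxin chain, measured 403, 301 and 299 CPM in members and was higher by 1.503 than in CD8 T cells and by 1.67 than in other Trdc T cells. Tnf, the inflammatory cytokine TNF, measured 153, 214 and 196 CPM and was higher by 1.59 than in CD8 T cells. Against the 38 other Trdc T cells without those NK genes, Areg (1.30) and Ltb (0.94) were no longer called.

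The stretches before the start sites of Il17a, Il17f and Il23r are shown, genes of IL-17 cytokines and of the IL-23 receptor. Il17f and Il23r are not genes of the rule. The nuclear receptor of Rora, described above, is known to bind the core motif AGGTCA. Each stretch holds the 250 bases upstream of the RefSeq start site on GRCm38.p6, written 5′ to 3′ on the gene's strand, with matches to AGGTCA on either strand in capitals.
Il17a: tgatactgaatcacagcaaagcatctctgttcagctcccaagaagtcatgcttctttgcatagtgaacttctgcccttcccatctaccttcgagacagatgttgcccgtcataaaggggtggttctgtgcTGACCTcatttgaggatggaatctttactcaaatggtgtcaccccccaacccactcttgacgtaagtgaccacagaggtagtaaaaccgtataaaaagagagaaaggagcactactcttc
Il17f: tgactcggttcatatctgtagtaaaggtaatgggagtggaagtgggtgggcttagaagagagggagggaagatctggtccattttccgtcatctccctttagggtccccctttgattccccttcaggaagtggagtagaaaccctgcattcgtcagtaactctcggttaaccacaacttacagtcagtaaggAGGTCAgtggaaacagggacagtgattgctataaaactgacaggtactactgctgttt
Il23r: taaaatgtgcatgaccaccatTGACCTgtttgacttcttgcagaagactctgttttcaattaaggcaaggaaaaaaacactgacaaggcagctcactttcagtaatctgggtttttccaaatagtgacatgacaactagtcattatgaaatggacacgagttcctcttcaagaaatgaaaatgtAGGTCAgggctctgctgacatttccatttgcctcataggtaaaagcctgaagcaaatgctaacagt
They lie at chr1:20730655-20730904 (Il17a, plus strand), chr1:20784271-20784520 (Il17f, minus strand) and chr6:67491856-67492105 (Il23r, minus strand). The Il17f stretch lies inside the gene span given above (20777146 to 20790617), which comes from GENCODE and starts at another base than the RefSeq entry. The Il17a stretch held 1 match, read on the opposite strand as TGACCT, at -120 from the start. The Il17f stretch held 1 at -58, and the Il23r stretch 2, at -229 and -66. Of 32851 upstream stretches of the same length in the RefSeq table, 4607 or 14.02% held at least 1 match. Those of Cd163l1, Sox13 and Il1r1 held none and are not printed, so the stretches shown are the ones with a match. A match is a string of letters, not a measured binding site.

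Homing receptors of the members marked them off from the 3 classes in part. Ccr2, the receptor for monocyte-attracting chemokines, measured 799, 506 and 482 CPM in members, 217, 146 and 87.7 in CD4 T cells, 92.3, 56.0 and 77.5 in CD8 T cells and 288, 181 and 52.6 in other Trdc T cells. No member tag overlapped with another class. Itgae, the CD103 integrin chain that binds E-cadherin on epithelium, measured 234, 87.5 and 156 CPM in members and at most 39.3 elsewhere. Its call over other Trdc T cells (3.28) ended against the 38 of them without the NK genes Ncr1, Klrb1c and Klre1 (1.45). It also ended for members with Trdc and without Trac (3.56). Cxcr6, a receptor of tissue-resident T cells, measured 815, 598 and 539.7 CPM in members against 66.8, 247 and 209 in CD4 T cells and 0, 94.4 and 26.3 in other Trdc T cells. Against CD8 T cells, with 220.0, 322 and 279 CPM, the Cxcr6 difference was 0.95 and was not called. Against the 191 CD4 T cells of a single cluster it was 1.04 and not called either. Ccr6, the usual chemokine receptor of IL-17 cells, had only 13 molecules in 11 members.

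Of the homing list as a whole, 4 of 15 tested genes were higher than in CD4 T cells, 9 of 17 than in CD8 T cells and 3 of 13 than in other Trdc T cells, and none was lower. Without cells over 20000 molecules the CD8 count was 7 of 16, with 1 lower, and the other Trdc count was 5 of 13. Ltb4r1, the receptor for the lipid attractant leukotriene B4, was higher than in CD4 T cells by 2.96 and than in CD8 T cells by 4.58. Cd69, an early activation and retention marker, measured 436, 637 and 669 CPM in members and was higher than in CD8 T cells by 1.96, but was not called after thinning (1.16).

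The surface and effector list of IL-17 gamma-delta genes gave many calls: 9 of 17 tested were higher than in CD4 T cells, 11 of 17 than in CD8 T cells and 10 of 16 than in other Trdc T cells. Without cells over 20000 molecules the counts were 9 of 17, 11 of 16 and 9 of 16. Against the 38 other Trdc T cells without the NK genes, the calls of Actn2 (0.00), Krt83 (0.84), Ramp1 (1.40), Capg (1.52) and Lmna (0.79) ended, which leaves 5 of the 10. In a tag where those cells held no molecule of a gene, the ratio is a bound set by the floor of 3 counts. Cd9, a tetraspanin, was lower than in other Trdc T cells (-1.90), a call that ended against those 38 cells (-0.08) and for members with Trdc and without Trac (-1.41). The list was assembled from genes known for these cells and with earlier results of these data in view, so its direction is not independent evidence. Aqp3, a channel for water and glycerol, measured 161, 185 and 223 CPM in members, 4.77, 47.8 and 4.74 in CD4 T cells, 1.01, 1.61 and 4.03 in CD8 T cells and 12.003, 15.7 and 26.3 in other Trdc T cells. Members held 46.6% of all Aqp3 molecules among the kept cells. Tmem176a, an ion channel family gene known from IL-17 producing cells, measured 548, 418 and 442 CPM in members and at most 92.5 in the others.

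Ramp1, which completes the receptor for the nerve peptide CGRP, measured 113, 72.9 and 71.4 CPM in members, against 7.16, 16.9 and 14.2 in CD4 T cells, 9.12, 1.21 and 5.83 in CD8 T cells and 24.0, 15.7 and 26.3 in other Trdc T cells. All member tags were above all others. Kcnk1, a potassium channel, had 34 molecules in 25 members, 0 in CD4 T cells, 0 in CD8 T cells and 1 in other Trdc T cells; members held 72.3% of its molecules. Serpinb1a, a protease inhibitor, measured 323, 258 and 303 CPM in members, 54.9, 129 and 97.2 in CD4 T cells and 0, 31.5 and 0 in other Trdc T cells. Tag 9 kept it from a call against CD4 T cells; without cells over 20000 molecules Serpinb1a was called higher there, and Lmna was not. Lmna, the nuclear lamin A and C gene, was called against all 3 classes, but against other Trdc T cells (1.19) 9 alternative settings ended the call, and against CD4 T cells (1.53) 6 did.

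**Figure D4:**
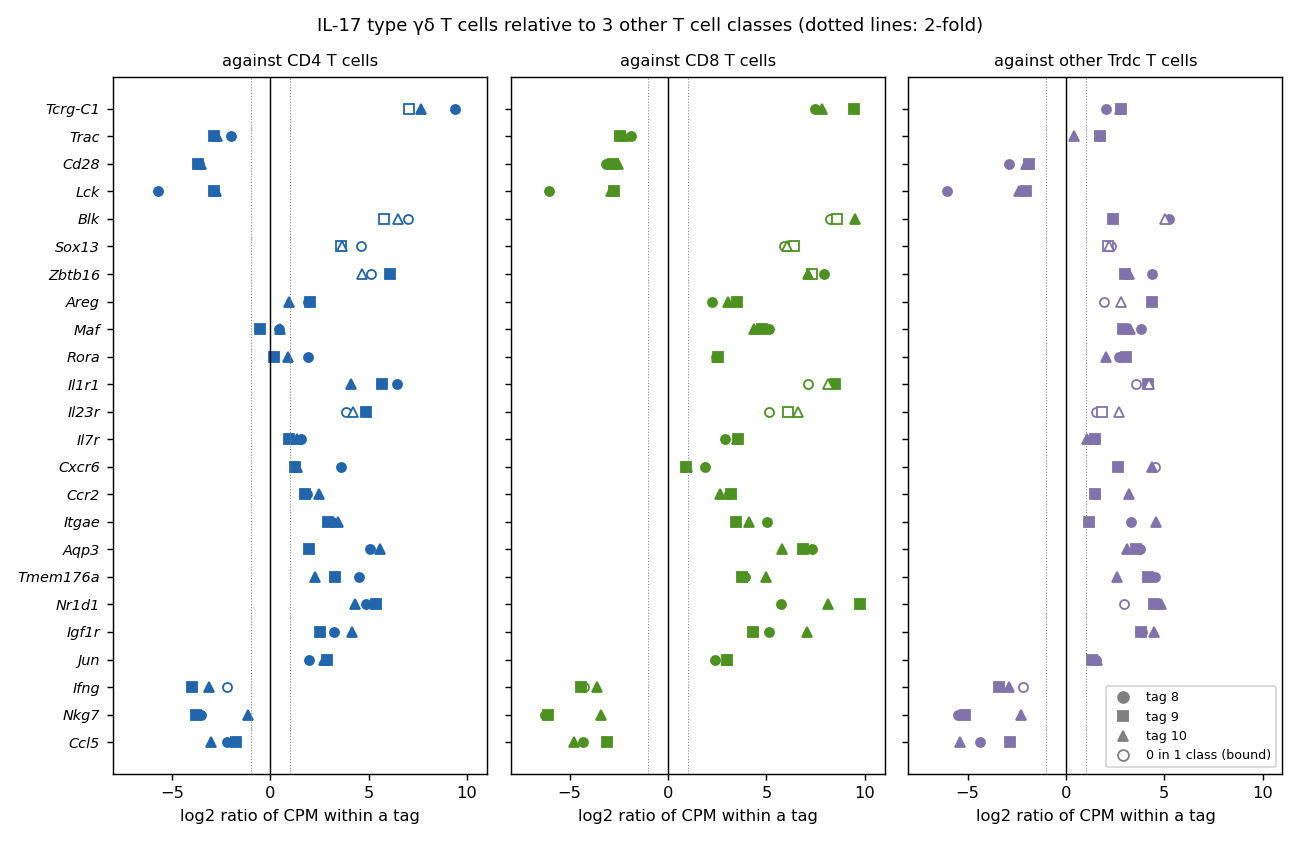
Log2 ratio of CPM within a tag (x axis) between the members and CD4, CD8 or other Trdc T cells for 24 genes (rows), with a symbol for each tag; open symbols are bounds where 1 class had no molecule, and dotted lines mark 2-fold. Blk and Il1r1 lie to the right in all 3 panels, Maf is near 0 against CD4 T cells (0.47) and at 4.79 against CD8 T cells, and Lck, Ifng and Ccl5 lie to the left.

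The cytotoxic and interferon gamma programme was low in the members. Of its tested genes, 14 of 17 were lower than in CD8 T cells, 11 of 15 lower than in other Trdc T cells and 4 of 16 lower than in CD4 T cells; 1 was higher, Klrk1 against CD4 T cells. Ifng, the gene of interferon gamma, had 7 molecules in 3 of 162 members, or 0, 9.72 and 22.3 CPM. It measured 109.8, 155 and 194 CPM in CD4 T cells, 471, 211 and 275 in CD8 T cells and 108.03, 102 and 164 in other Trdc T cells. No tag overlapped, and the pooled level was 12.1-fold lower than in CD4 T cells and 22.3-fold lower than in CD8 T cells. The Ifng molecules lay near the edge of the rule: 2 of the 14 members with a marker sum of 2 and 1 of the 7 with a sum of 3 had one, and 0 of the 141 with a sum of 4 or more.

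Ccl5, a chemokine of cytotoxic cells, measured 121, 311 and 89.2 CPM in members and 2533, 2235 and 3758 in other Trdc T cells. Nkg7, a granule protein, measured 16.1, 19.4 and 125 CPM in members, 1219, 1353 and 1312 in CD8 T cells and 720.2, 685 and 618 in other Trdc T cells. Its 34 molecules lay in 9 members, and tag 10 was the highest. Gzma, Eomes and Xcl1, genes of cytotoxic cells, were found in members of tag 10 alone, in 7, 3 and 3 cells. Gzmb (granzyme B) measured 113, 72.9 and 49.1 CPM in members against 1116, 1410.2 and 1068 in CD8 T cells. Against CD4 T cells the Gzmb difference was -2.49, but it was 0.03 against the 191 CD4 T cells of a single cluster. Klrk1 (NKG2D), a receptor for stress ligands, measured 307, 204 and 214 CPM in members, 45.4, 70.3 and 75.9 in CD4 T cells, 170.3, 137 and 161 in CD8 T cells and 408, 299 and 217 in other Trdc T cells. Cd27, the marker of the interferon gamma branch, was found in 8 members and differed from CD8 T cells by -2.56 and from other Trdc T cells by -2.22. After thinning to 1000 molecules, the calls of Cd27 (-3.11), Gzmk (-1.89), Prf1 (-1.76) and Fasl (-0.43) against CD8 T cells ended. Against the 38 other Trdc T cells without the NK genes Ncr1, Klrb1c and Klre1, the calls of Cd27 (-2.33) and Gzma (-0.57) ended.

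Costimulatory and checkpoint receptors split. Of the 15 tested against CD4 T cells, 5 were lower (Ctla4, Tigit, Cd28, Tnfrsf4 and Tnfrsf18) and 1 higher (Tnfrsf25); against CD8 T cells 7 of 17 were lower and 2 higher, and against other Trdc T cells 3 of 12 were lower and 3 higher. Cd28, the main costimulatory receptor, measured 32.3, 38.9 and 49.1 CPM in members against 392, 492 and 569 in CD4 T cells, 289.9, 267 and 288 in CD8 T cells and 240.1, 142 and 204 in other Trdc T cells. No member tag reached another class. Icos, a relative of Cd28, measured 2033, 1565 and 1650.3 CPM in members and overlapped with CD4 T cells, at 1296, 2130.1 and 1824. Icos lay at 347, 504 and 658 CPM in CD8 T cells and at 192, 197 and 204 in other Trdc T cells.

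Pdcd1, which encodes PD-1, the receptor in the series title, measured 88.7, 141 and 152 CPM in members and was found in 56 of 162. CD4 T cells measured 45.4, 124 and 92.5 CPM, CD8 T cells 255, 305 and 237, and other Trdc T cells 0, 7.87 and 19.7. Pdcd1 was higher than in other Trdc T cells (2.94; 1.54 and no call against the 38 without those NK genes), and differed from CD4 T cells by 0.71 and from CD8 T cells by -1.11 without a call. Lag3 had 1 and Havcr2 9 molecules in the members, and these exhaustion markers differed from CD8 T cells by -3.02 and -2.90; both calls ended after thinning (-1.32 and -1.22). Tnfrsf25 (DR3), the receptor for TL1A, measured 129, 53.5 and 107 CPM in members and at most 12.003 elsewhere.

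Among the antigen response and AP-1 genes, Jun, an AP-1 subunit, measured 903, 967 and 1084 CPM in members against 234, 129 and 161 in CD4 T cells, 170.3, 122 and 138 in CD8 T cells and 312, 386 and 368 in other Trdc T cells. All member tags were above all others. Of that list 2 of 15, 7 of 16 and 1 of 14 tested genes were higher in the 3 contrasts and none was lower; without cells over 20000 molecules the counts were 1, 5 and 2. Against the 38 other Trdc T cells without the NK genes Ncr1, Klrb1c and Klre1, Jun was no longer called (1.32). Dgat1, an enzyme of triglyceride synthesis, measured 1307, 1055 and 1882 CPM in members, 216, 355 and 346 in CD8 T cells and 312, 464 and 585 in other Trdc T cells. It was not called against CD4 T cells (1.68, with a lowest tag of 0.41).

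Of 12 glycolysis and hypoxia genes tested against CD8 T cells none was called in either direction, but in tag 9 the melanoma-bearing deep cell set the member level. Gapdh measured 750, 2115 and 767 CPM in members, and 731 in tag 9 without that cell. With cells over 20000 molecules left out of both classes, 3 of 12 were lower than in CD8 T cells: Gapdh, Pgk1 and Tpi1. Gapdh then measured 750, 731 and 767 CPM in members against 1572, 1981 and 1688 in CD8 T cells. Against CD4 T cells and other Trdc T cells the count was 0 of 12 and 0 of 11, and 0 without those cells.

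With every cell thinned to 1000 molecules, the classes could be compared at equal depth. A Blk molecule was found in 43.5% of members, 0% of CD4 T cells, 0% of CD8 T cells and 3.61% of other Trdc T cells, against 76.5%, 0%, 0.139% and 3.57% at full depth. For Il1r1 the thinned shares were 24.8%, 0.974%, 0% and 0%, and at full depth 54.3%, 1.94%, 0.139% and 2.38%. Icos was at 71.4%, 63.3%, 38.0% and 8.43% after thinning, the members next to the CD4 T cells. Thinning left out 1 member, 2 CD4, 3 CD8 and 1 other Trdc T cell.

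Cell cycle genes were found in few members. At least 2 molecules of 6 cell cycle genes were found in 13 of 162 members, 8.02% (4.34% to 13.3%), against 10.97% of CD4 T cells, 39.4% of CD8 T cells and 8.33% of other Trdc T cells. With every cell thinned to 1000 molecules, at least 1 molecule was found in 8.70% of members (161 cells), 12.3% of CD4 (308), 29.7% of CD8 (715) and 10.8% of other Trdc T cells (83). Of the cell cycle list, 10 of 12 genes were lower than in CD8 T cells, such as Mki67 at 8.07, 97.2 and 44.6 CPM against 277, 244 and 270.2.

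The members differed among themselves in Il17a itself. To look at this apart from the choice, the 155 members with at least 2 molecules of Cd163l1 and Trdv4 together were split by Il17a. An Il17a molecule was found in 93 of them, 60.0% (51.8% to 67.8%): the tags had 21 of 39 (53.8%), 29 of 48 (60.4%) and 43 of 68 (63.2%), and their intervals overlap. The median depth was 2988 molecules with and 2847 without Il17a.

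Few genes were called between the cells with and without Il17a. The sets held 18 to 43 cells per tag, so differences could be missed. Whether some cells without an Il17a molecule held it undetected was not tested. Of 3196 genes, 8 (0.25%) were at least 2-fold higher in all tags in cells with Il17a, Il17a included, and 3 (0.0939%) were lower; without the deep cell, 6 and 3 of 2942. None of the genes of the 15 lists was called in either direction. The 5 tested genes of the cytotoxic and interferon gamma list had a median log2 ratio of -1.39, beside 0.01 over all genes. Without the deep cell that median was -0.78. Blk measured 934, 437 and 733 CPM in cells with Il17a and 895, 506 and 537 in cells without. Il1r1 measured 382, 328 and 399 CPM with and 487, 230.0 and 307 without, and Il23r 99.1, 78.0 and 145 with and 117, 107 and 115 without. Rora measured 1825, 1029 and 1923 CPM with and 1849, 1318 and 1662 without. In each of these genes the tags of the 2 sets overlapped. Ebp, a sterol isomerase of cholesterol synthesis named after its values were seen, measured 99.1, 85.8 and 109 CPM with Il17a and 19.5, 30.7 and 12.8 without, on 33 and 4 molecules.

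**Figure D5:**
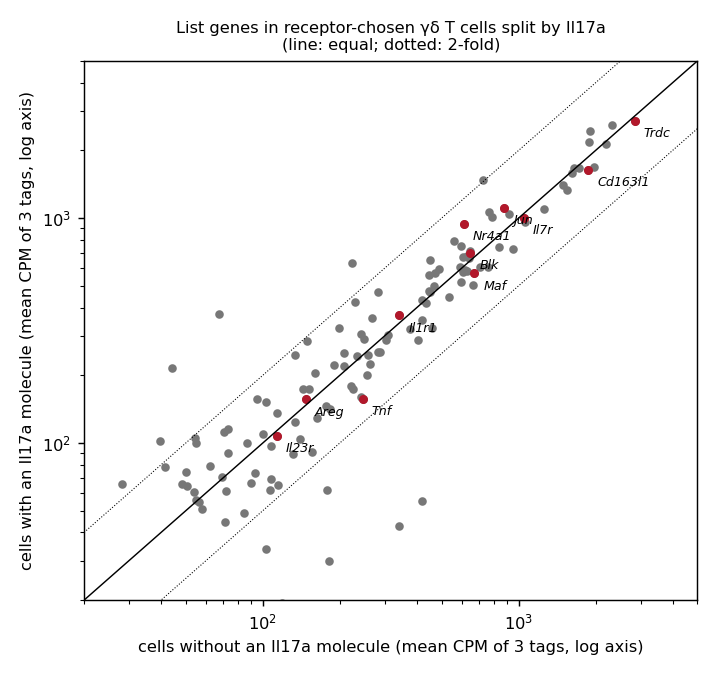
Mean CPM over the 3 tags of 130 list genes in receptor-chosen members with (y axis) and without (x axis) an Il17a molecule, both axes logarithmic; the solid line marks equal levels and dotted lines 2-fold, and 2 genes lie outside the axes. In 13 genes the means differ by more than 2-fold, but in none of them were all 3 tags at least 2-fold apart in 1 direction.

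Over all kept cells, members lay together. In a clustering of all 10491 cells into 21 groups, 139 of 162 members (85.8%) fell in a single group of 225 cells, of which they made up 61.8%. A further 11 members fell in the group that held 191 of the 310 CD4 T cells. The clustering used the same genes as the rule, so this is a description of where the cells lay.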

How the data were processed

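The authors' deposited table gave molecule counts, raw and not normalized, for 14899 cells and 24510 genes from 1 capture, with a sample tag call for each cell. Per the file headers, version 1.9.1 of BD's WTA Multiplex Rhapsody pipeline made it, with GENCODE vM19 genes on GRCm38. Another build is named in the submitters' processing notes. Coordinates here come from GENCODE vM21, on GRCm38. The series' design text speaks of a targeted kit, the labels of the whole transcriptome. Cells called as multiplets (1448) or without a tag (361) were left out, and no further doublet caller was run. Kept cells had a median of 3489 molecules, and 3336, 3486 and 3669 of them carried tags 8, 9 and 10. No gene was tested with a replicate model, since each tag is 1 pooled sample. Shares have exact Clopper-Pearson 95% intervals.

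The CD4 comparator had a Cd4 and a CD3 molecule, and none of Cd8a, Cd8b1, Foxp3, Trdc or the marker trio; the CD8 comparator had at least 2 Cd8a and Cd8b1 molecules together, a CD3 molecule and no Cd4. Named genes were those of 15 lists (240 genes, 230 in the table) and, per contrast, the 12 called genes with the largest median ratio in each direction. The members and lists were chosen with earlier results of these data known. The procedure was tested on simulated data. Alternatives changed the marker sum, cell filters, totals, TMM factors (edgeR 4.0.16, for these factors alone), thinning, averaging and the tags used. Python 3.11.15, numpy 2.4.6, scipy 1.17.1, scanpy 1.11.5 and leidenalg 0.10.2 were used, with 2000 variable genes, 30 components and 15 neighbours for the clustering. Promoter sequences are from RefSeq, build GRCm38.p6; 6 genes were matched.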

Additional observations from a re-analysis of the deposited data

Results flagged for a closer look

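Cells given more than 1 sample tag were outside every comparison, and they also held cells that met the rule for IL-17 type gamma-delta T cells. Among 1271 such cells that passed the cell filters, 22 met the rule, a share of 1.73% (exact 95% interval 1.09% to 2.61%). Cells without a tag call held 0 of 175, for which 3 counts would be 1.71% and the exact 95% upper bound is 2.09%.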

How the results depend on the processing

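Thinning every cell to 1000 molecules tested fewer genes (2910, 4584 and 1550) and called 87 higher and 60 lower against CD4 T cells, 161 and 109 against CD8 T cells, and 82 and 38 against other Trdc T cells. Leaving out a tag left 2 tags to pass: 200 to 265 genes were then lower than in CD4 T cells and 477 to 613 lower than in CD8 T cells (585 without tag 8, 613 without tag 9). With comparators or members chosen after seeing the data, 114 members with Trdc and without Trac made up 1.09% of kept cells. Against 38 other Trdc T cells without the NK genes Ncr1, Klrb1c and Klre1, 83 genes were higher and 63 lower. These cells hold fewer molecules, so bounds set by the floor of 3 counts are weaker there. The Gzmb difference from CD4 T cells changed sign, to 0.0289, against CD4 T cells of 1 cluster; the cause was not tested. Of the named genes called, 57 of 75 kept the call under every alternative against CD4 T cells, 85 of 126 against CD8 T cells and 39 of 83 against other Trdc T cells. No paired analysis was possible because the labels give no replicate numbers to block on; every ratio was itself taken within a tag. With a minimum of 10 molecules in place of 30, 197 genes were higher and 136 lower against CD4 T cells, of 9254.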

Other observations

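Genes outside the lists of known pathways were among those with the largest ratios. Nr1d1, the circadian repressor REV-ERBα, measured 274, 345 and 375 CPM in the IL-17 type gamma-delta T cells of tags 8, 9 and 10, 9.55, 8.43 and 19.0 in CD4 T cells, 5.07, 0.403 and 1.34 in CD8 T cells and 0, 15.7 and 13.1 in other Trdc T cells. All member tags were above all others, and a Nr1d1 molecule was found in 85 of 162 members. The Nr1d1 call over other Trdc T cells (4.45) ended when cells were thinned to 1000 molecules (3.45). Members held 21.6% of the Nr1d1 molecules of all kept cells. Abi3bp, an extracellular matrix binding protein, measured 363, 233 and 214 CPM in members, with 0 molecules in CD4 T cells, 0 in CD8 T cells and 4 in other Trdc T cells. Igf1r, the receptor for insulin-like growth factor, measured 177, 112 and 294 CPM in members and at most 19.7 in any tag of the other 3 classes, while neutrophils measured 116, 111 and 119.

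Npnt (nephronectin), a matrix ligand of integrins, measured 209.7, 194 and 125 CPM in members against 48.7, 32.6 and 10.8 in CD8 T cells, and had 3 molecules in CD4 T cells and 1 in other Trdc T cells. Coro2b, an actin-binding coronin, measured 218, 165 and 125 CPM in members and at most 9.55 in the other T cells. Mmp25, a membrane metalloproteinase, measured 395, 438 and 281 CPM in members and at most 78.8 there. Selenop, the plasma selenium carrier, measured 1024, 783 and 678 CPM in members, 277, 118 and 90.1 in CD4 T cells, 43.6, 16.5 and 23.8 in CD8 T cells and 84.0, 126 and 46.0 in other Trdc T cells. C1q macrophages measured 1449, 1011 and 1674 CPM of Selenop; the macrophage marker list stood at 134 to 355 CPM in members and 157 to 360 in other Trdc T cells, and its part in the difference was not tested. Against the 38 other Trdc T cells without the NK genes Ncr1, Klrb1c and Klre1, Igf1r (2.37), Coro2b (1.26) and Npnt (1.26) were no longer called. Npnt had 1 molecule in the other Trdc T cells as a whole, so its value rests on the floor of 3 counts.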
